A study of Mus musculus with 6 samples.

Results

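VEGF and PDGF ligands and receptors form 1 family of secreted dimeric growth factors and the tyrosine kinase receptors that read them. The members described here were 10 mouse genes, Vegfa, Vegfb, Vegfc, Pgf, Pdgfa, Pdgfb and Pdgfc among the ligands and Flt1, Pdgfra and Pdgfrb among the receptors, and they were read by every probe set whose platform annotation names one of them alone. That rule gave 22 probe sets, of 34945 on the array with 1 gene symbol. A probe set is a group of short oligonucleotides whose combined brightness reports 1 transcript. The samples were 3 of 393P cells, a lung cancer line of the mouse, with stable constitutive Zeb1 expression from a vector, and 3 of 393P cells with the pcDNA control vector. Zeb1 is a transcriptional repressor known for driving epithelial cells towards a mesenchymal state. Both groups were transfected with a lipid reagent and grown in RPMI with serum. The series description states triplicate cultures, and the labels number the samples without saying whether these came from separate transfections or clones. The p-values thus measure the spread between these cultures, which may not include that between transfections or clones.

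Ligands of this family bind as dimers and bring 2 receptor chains together, which then phosphorylate each other. Vegfa, Vegfb and placental growth factor, Pgf, bind Flt1 (VEGF receptor 1), which binds VEGF tightly but signals weakly and is often released as a soluble trap. Vegfa also acts through Kdr, the main receptor of blood vessel growth, and Vegfc acts mainly through Flt4, the receptor of lymphatic vessel growth, with neuropilins as co-receptors. Pdgfa, Pdgfb and Pdgfc act on Pdgfra and Pdgfrb, which are typical of fibroblasts and of the mural cells that wrap vessels, and epithelial tumour cells are known as a source of the ligands rather than of these receptors.

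Vegfc and Pgf rose in Zeb1 cells, and the remaining ligands of both families did not pass the test. Vegfc was 3.72-fold higher on the probe set that stood for it and Pgf was 3.50-fold higher. No probe set of Vegfa, Vegfb, Pdgfa, Pdgfb or Pdgfc was called in either direction, and the signals of Pdgfra and Pdgfrb were too low to test in both groups. In all, 17 of the 22 member probe sets passed a filter on low signal (at or above the median of its own array on at least 3 of the 6 arrays), and 5 of these 17 were called higher and 0 lower at an adjusted p under 0.05, with limma's moderated test adjusted by Benjamini-Hochberg over 20594 probe sets. Across all those probe sets 46.1% were called, 24.5% higher and 21.6% lower, so the 29.4% of member probe sets called higher lies near the background. With each array centred on its median the balance of directions over all probe sets turned, with 46.2% of calls higher against 53.1% without centring. By the brightest probe set of each of the 8 member genes tested, 2 were called higher and 0 lower, where 49.3% of all 11893 tested genes were called. The groups did not overlap for 8 of the 17 (47.1%), against 55.4% of all tested probe sets. Of these 8, 7 were higher in Zeb1 cells and 1 was lower, where 29.2% and 26.2% of all tested probe sets were. The median size of the log2 change, sign aside, was 0.21 over the 17 and 0.36 over all tested probe sets. One of the 5 called (1419417_at, for Vegfc) passed the filter through its Zeb1 arrays alone and so had to differ. Of the 16 that reached the median on at least 1 array of each group, 4 were called higher. The share of all probe sets called higher under that condition is not given here, so this count has no background to be read against.

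**Figure D1:**
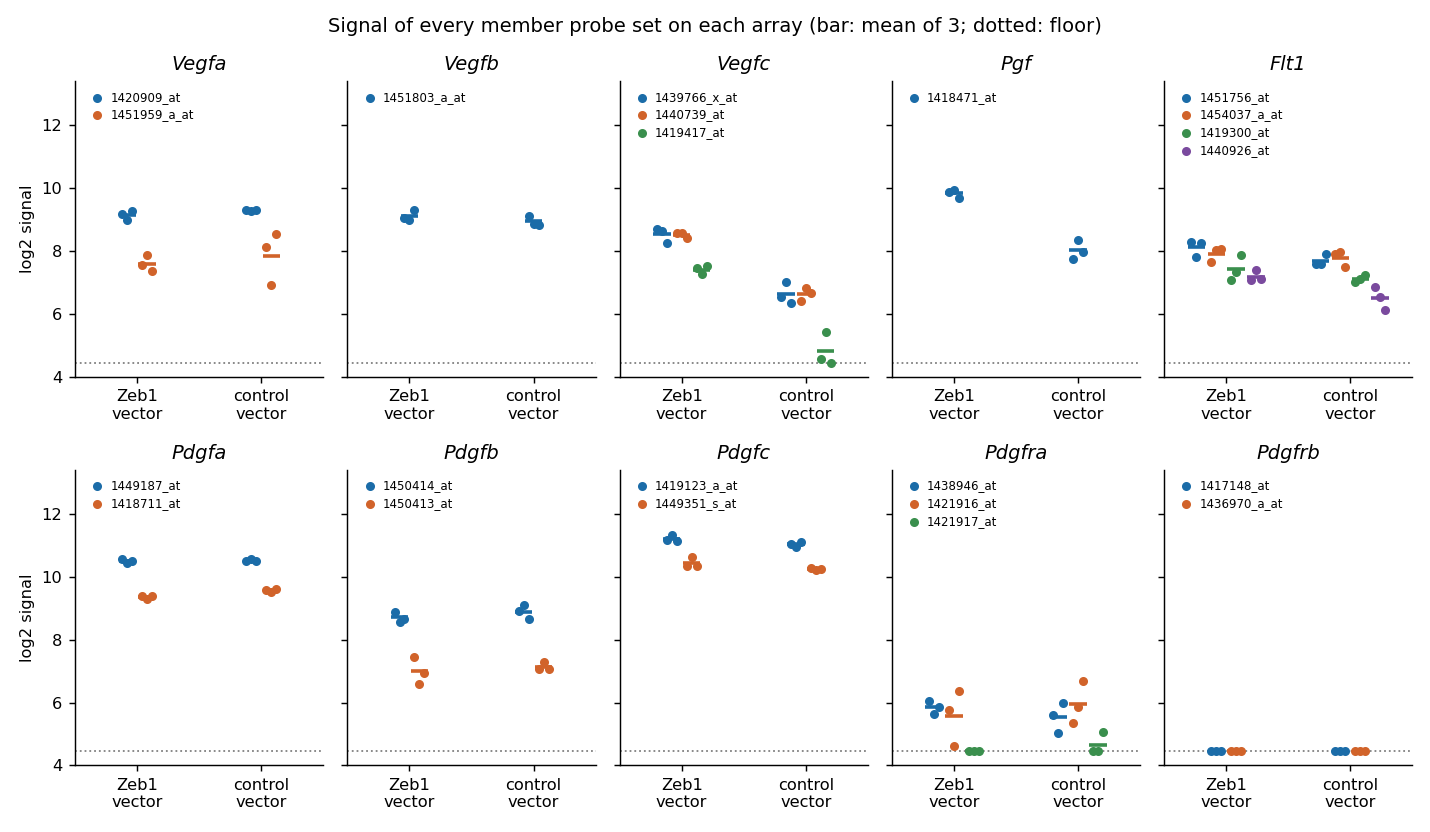
Log2 signal (y axis) of every member probe set on the 3 Zeb1 vector arrays and the 3 control vector arrays (x axis), 1 panel per gene. Points are arrays, bars are means of 3, colours are probe sets and the dotted line is the floor at log2 4.45. The points of Vegfc and Pgf are separate between the groups on each of their probe sets, and both Pdgfrb probe sets lie at the floor on every array.

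Facts of the arrays bear on all values below. Values are log2 of the MAS5 signal, the trimmed mean of each array was 500, and the lowest 25% of all signals were raised to a floor of log2 4.45. The vector was checked on Zeb1 itself, where the probe set with the highest signal read 9.71, 9.59 and 9.78 in Zeb1 cells, against 4.45, 4.45 and 4.50 in control cells, at least 37.4-fold higher (adjusted p = 2.3e-08), a log2 change of 5.23, or 3.37 with the floor set to the pooled median. It passed the filter through its Zeb1 arrays alone. A second Zeb1 probe set rose by 1.17 (adjusted p = 0.00895), and the other two did not pass the filter. Of 7 epithelial markers 5 fell and 0 rose, Epcam by 7.05 and Cdh1 by 4.01 among them, and their summed linear signal was 57606 to 61830 in Zeb1 cells and 119245 to 126230 in control cells. The keratins Krt8, Krt18 and Krt19 read log2 13.33 to 14.80 in Zeb1 cells and 13.41 to 14.77 in control cells. These ranges pool the 3 keratins and do not give the change of any single one. Only 2 of the 7 epithelial markers were not called. The lung lineage factor Nkx2-1 was near the floor in both groups (4.45 to 4.99 in Zeb1 cells and 4.45 to 5.13 in control cells). Of 6 lung epithelial markers 3 were tested and 0 called, with sums of 579 to 607 in Zeb1 cells and 514 to 573 in control cells. Of 10 endothelial markers, Pecam1, Tie1, Vwf and Erg were at the floor on all 6 arrays, 8 were not tested, 0 were called, and their summed linear signal was 564 to 756 in Zeb1 cells and 591 to 740.1 in control cells. Of 6 leukocyte markers with a probe set 3 were tested and 0 called, with sums of 475 to 643 in Zeb1 cells and 561 to 635 in control cells. Among 8 mural cell markers 4 were tested, of which 2 fell and 0 rose. Mcam, which passed the filter through its control arrays alone, had a log2 change of -4.18 and Acta2 of -1.88. The summed linear signal of the 8 was 566 to 705 in Zeb1 cells and 1492 to 1796 in control cells. Among 8 fibroblast markers only 2 were tested, of which 1 fell (Pdpn, by 1.66) and 0 rose. The sums over the 8 were 414 to 641 in Zeb1 cells and 647 to 841 in control cells. The part of other cells in the member values was not tested, and in RNA from bulk cells fewer cells making a transcript and less of it per cell cannot be told apart.

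Vegfc, the growth factor best known for lymphatic vessels, was read by 3 probe sets. On 1440739_at its log2 signal was 8.57, 8.57 and 8.41 in Zeb1 cells, against 6.42, 6.82 and 6.65 in control cells. Every Zeb1 array lay above every control array by more than the spread within either group. The log2 change was 1.89 (SE 0.168, 95% confidence interval 1.51 to 2.26, adjusted p = 1.44e-05), which is 3.70-fold.

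The brightest Vegfc probe set, 1439766_x_at, read 8.70, 8.62 and 8.25 in Zeb1 cells and 6.53, 7.02 and 6.34 in control cells, again with no overlap. Its log2 change was 1.89 (SE 0.217, adjusted p = 7.36e-05). The suffix x marks probe sets some of whose oligonucleotides resemble other transcripts, a mark that 1440739_at does not carry. The third probe set, 1419417_at, read 7.44, 7.25 and 7.50 in Zeb1 cells, against 4.56, 5.41 and 4.45 in control cells, where 1 array was at the floor. Vegfc was thus at least 6.04-fold higher on it (log2 change 2.59, adjusted p = 0.000134). That bound moves with the floor: the log2 change was 1.08 with the floor set to the pooled median, and 2.96 where signals were left as deposited. All 3 Vegfc changes were larger than those of at least 96.5% of the tested probe sets.

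Pgf, a ligand of Flt1 made in quantity by the placenta and by some tumours, was read by 1 probe set. Its log2 signal was 9.86, 9.94 and 9.67 in Zeb1 cells, against 7.75, 8.35 and 7.95 in control cells. The lowest Zeb1 array stood well above the highest control array, and the mean was 9.83 ± 0.138 in Zeb1 cells and 8.02 ± 0.307 in control cells (SD, n = 3 each). The log2 change was 1.81 (SE 0.161, 95% confidence interval 1.45 to 2.17, adjusted p = 1.42e-05 from limma). Called rises of at least 2-fold were made for 8.97% of all tested probe sets. With a single probe set, no other reading of Pgf was available to set beside it.

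RefSeq windows of the 250 bases before each annotated start (build GRCm38.p6) were searched for the Zeb1 binding letters CAGGTG and CAGGTA and for ACGTG, the core of the hypoxia response element, on both strands. CAGGTG and CAGGTA cannot share the same 6 bases on 1 strand. The windows of the members that rose are shown because these are the genes whose transcripts differed between the groups, with any match in capitals.
Vegfc, chr8:54077282-54077531, plus strand: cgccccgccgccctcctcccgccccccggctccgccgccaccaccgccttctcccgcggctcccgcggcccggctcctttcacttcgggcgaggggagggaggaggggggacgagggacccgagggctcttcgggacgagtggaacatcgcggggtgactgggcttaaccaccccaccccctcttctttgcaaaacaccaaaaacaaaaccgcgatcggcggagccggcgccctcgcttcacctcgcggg
Pgf, first start, chr12:85177314-85177563, minus strand: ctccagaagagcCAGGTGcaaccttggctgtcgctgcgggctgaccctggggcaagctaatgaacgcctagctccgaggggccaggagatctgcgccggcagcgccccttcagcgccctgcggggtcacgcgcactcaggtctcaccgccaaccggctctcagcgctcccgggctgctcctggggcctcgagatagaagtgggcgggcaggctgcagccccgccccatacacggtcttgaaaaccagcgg
Pgf, second start, chr12:85175983-85176232, minus strand: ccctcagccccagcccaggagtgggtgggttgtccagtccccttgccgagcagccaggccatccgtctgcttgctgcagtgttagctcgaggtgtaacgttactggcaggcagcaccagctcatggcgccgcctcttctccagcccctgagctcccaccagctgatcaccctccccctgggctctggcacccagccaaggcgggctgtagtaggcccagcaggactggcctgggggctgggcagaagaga

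The Vegfc window held none of the 3 motifs and was 71.6% G or C. The capitals in the first Pgf window are 1 match to CAGGTG that begins at position -238 from the start, and its second window held none. Of the members that were not called, Vegfa had 2 matches to CAGGTG (at -186, and at -178 on the opposite strand) and 1 to ACGTG (at -211, opposite strand) in 1 of its 2 windows, and Pdgfa had 1 match to CAGGTA (at -46) in 1 of its 2 windows. These genes lie on the minus strand, and the matches fall before the downstream annotated start (chr17:46025164-46025413 for Vegfa, chr5:138994282-138994531 for Pdgfa). The windows of their upstream starts (chr17:46032378-46032627 and chr5:138994945-138995194) held none of the 3 motifs. Windows of Vegfb, Flt1, Pdgfc and Pdgfra held none. Windows were used for 8 of the 10 members, 11 in all, and 3 of the 11 (27.3%) held CAGGTG or CAGGTA, against 25.4% of all 32851 windows of that length. Member windows on 1 chromosome were left out of the 11, a limit that was not put on the 32851. For single motifs the share of all windows was 17.2% for CAGGTG, 10.0% for CAGGTA and 16.6% for ACGTG. A match is a run of letters and not a measured binding site.

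Vegfa, the ligand that drives sprouting of blood vessels, did not pass the test on either probe set. On 1420909_at the log2 signal was 9.18, 8.97 and 9.28 in Zeb1 cells, against 9.30, 9.27 and 9.32 in control cells, and the groups overlapped at the highest Zeb1 array. The log2 change was -0.15 (SE 0.111, 95% confidence interval -0.40 to 0.09, adjusted p = 0.292), an interval that spans 0.756-fold to 1.07-fold. The second probe set, 1451959_a_at, read 7.55, 7.87 and 7.36 in Zeb1 cells and 8.12, 6.90 and 8.52 in control cells. There 1 control array lay below every Zeb1 array and the other two lay above every Zeb1 array. Its log2 change of -0.26 (SE 0.361, adjusted p = 0.604) became -0.73 (adjusted p = 0.0219) without control replicate 2 and 0.080 (adjusted p = 0.877) without control replicate 3.

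Vegfb, a Flt1 ligand with little power to induce vessels and a known part in fatty acid uptake, read 9.04, 8.97 and 9.30 in Zeb1 cells, against 9.12, 8.87 and 8.84 in control cells. The groups overlapped, and the log2 change was 0.16 (SE 0.130, 95% confidence interval -0.13 to 0.45, adjusted p = 0.355). The ligands of Flt1 thus had log2 changes of -0.15 (Vegfa), 0.16 (Vegfb) and 1.81 (Pgf) on their brightest probe sets.

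The PDGF ligands gave 6 tested probe sets, of which 0 were called, and their median log2 change was -0.07. Pdgfc, a ligand secreted in latent form that must be cleaved before it binds, read 11.16, 11.31 and 11.14 in Zeb1 cells, against 11.03, 10.96 and 11.09 in control cells on 1419123_a_at. The 2 groups did not overlap, but the gap was small: the log2 change was 0.18 (SE 0.0767, 95% confidence interval 0.0037 to 0.35, adjusted p = 0.0891), or 1.13-fold. The other Pdgfc probe set, 1449351_s_at, changed by the same 0.18 (SE 0.097, adjusted p = 0.173), also with no overlap, at 10.33 to 10.62 in Zeb1 cells and 10.21 to 10.29 in control cells.

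Pdgfa, the ligand that binds Pdgfra as a homodimer, read 10.55, 10.45 and 10.50 in Zeb1 cells, against 10.49, 10.55 and 10.49 in control cells on 1449187_at, its brightest probe set. The groups covered the same range, and the log2 change was -0.01 (SE 0.0747, 95% confidence interval -0.18 to 0.15, adjusted p = 0.908). Its second probe set, 1418711_at, annotated to the same sequence record, read 9.40, 9.29 and 9.37 in Zeb1 cells and 9.57, 9.51 and 9.62 in control cells. Those groups did not overlap, and the log2 change of -0.21 had an adjusted p of 0.0874, or 0.0272 with no filter on low signal.

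Pdgfb, which binds both PDGF receptors and recruits mural cells, read 8.89, 8.57 and 8.66 in Zeb1 cells, against 8.91, 9.09 and 8.66 in control cells on 1450414_at. The groups overlapped, with a log2 change of -0.18 (SE 0.145, 95% confidence interval -0.50 to 0.15, adjusted p = 0.358). On 1450413_at the 3 Zeb1 arrays spread from 6.60 to 7.45, on both sides of the control range of 7.05 to 7.28, and the log2 change was -0.13 (adjusted p = 0.695).

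**Figure D2:**
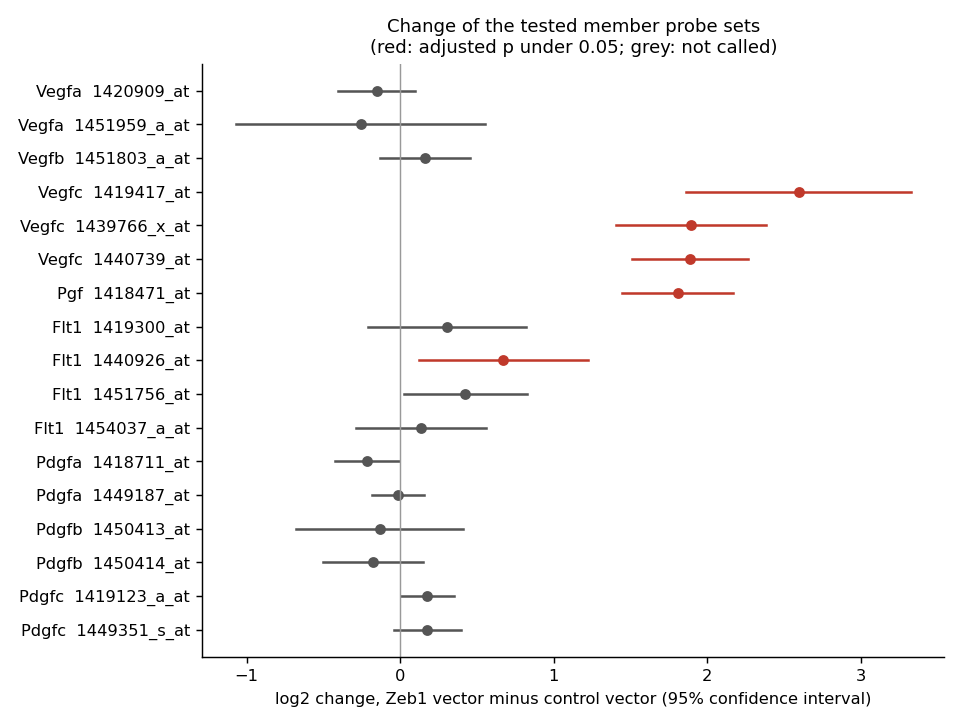
Log2 change, Zeb1 vector minus control vector (x axis), of the 17 tested member probe sets (y axis), with 95% confidence intervals from limma. Red marks the 5 probe sets with an adjusted p under 0.05 and grey the others. The 3 Vegfc probe sets and Pgf lie between 1.81 and 2.59, while every PDGF ligand lies between -0.21 and 0.18.

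Flt1 was the member receptor with signals high enough to test, on 4 probe sets that all had positive log2 changes, of 0.14 to 0.67. Only 1440926_at was called, at 7.07, 7.39 and 7.09 in Zeb1 cells, against 6.87, 6.55 and 6.12 in control cells. The groups did not overlap and the log2 change was 0.67 (SE 0.245, 95% confidence interval 0.12 to 1.22, adjusted p = 0.0476), 1.59-fold. This call was lost in 10 of 13 alternative analyses, with adjusted p-values of 0.0536 to 0.148, and in the other 3 the lowest adjusted p was 0.0213.

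The brightest Flt1 probe set, 1451756_at, read 8.27, 7.81 and 8.25 in Zeb1 cells and 7.58, 7.58 and 7.90 in control cells. One Zeb1 array fell inside the control range, and the log2 change was 0.42 (SE 0.178, 95% confidence interval 0.02 to 0.82, adjusted p = 0.0803), or 0.57 (adjusted p = 0.0325) without Zeb1 replicate 2. On 1419300_at and 1454037_a_at the log2 changes were 0.31 (adjusted p = 0.315) and 0.14 (adjusted p = 0.6), with overlapping groups. Which Flt1 transcripts, full length or soluble, each probe set reads is not known here.

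The PDGF receptors were at or near the floor. Both Pdgfrb probe sets were at the floor on all 6 arrays, so neither a level nor a difference could be read. Of the 3 Pdgfra probe sets, 1438946_at read 6.06, 5.64 and 5.87 in Zeb1 cells, against 5.59, 5.04 and 5.97 in control cells, below the array median on every array. The groups overlapped. A second, 1421916_at, spread from 4.61 to 6.35 in Zeb1 cells and from 5.36 to 6.67 in control cells, and 1421917_at was at the floor on every array except 1 control array (5.06). Fitted without the filter, none of the 3 was called (adjusted p = 0.55 to 0.757 from limma), which does not show equal levels at signals this low.

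Flt4, the main receptor of Vegfc, rose: on its brightest probe set it read 9.66, 9.70 and 9.99 in Zeb1 cells, against 8.11, 8.09 and 8.19 in control cells. No arrays overlapped, and the log2 change was 1.65 (SE 0.122, adjusted p = 3.84e-06), 3.14-fold. The second Flt4 probe set rose by 0.90 (adjusted p = 0.00121). Kdr, the main receptor of Vegfa, read 7.52, 7.83 and 7.14 in Zeb1 cells and 7.39, 7.54 and 8.27 in control cells, with a log2 change of -0.24 (adjusted p = 0.504).

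The neuropilins, co-receptors that hold VEGF ligands and also bind semaphorins, went opposite ways. Nrp1 rose by 1.53 on the log2 scale (SE 0.133, adjusted p = 1.21e-05), with means of 10.78 ± 0.178 in Zeb1 cells and 9.25 ± 0.224 in control cells (SD, n = 3 each, limma) and no overlap, and 2 more of its 4 tested probe sets were 2.82-fold and 2.61-fold higher. The remaining Nrp1 probe set had a log2 change of 0.81 (adjusted p = 0.0877) with overlapping groups. Nrp2, a neuropilin that binds Vegfc, fell by 2.31 on its brightest probe set (SE 0.112, adjusted p = 2.21e-07), at 8.09, 7.83 and 8.10 in Zeb1 cells and 10.31, 10.27 and 10.36 in control cells. Its other tested probe sets had log2 changes of -0.75 (adjusted p = 0.0323) and -0.33 (adjusted p = 0.145). Among the rest, the 3 Pdgfd probe sets were at the floor on every array, and Vegfd and Pdgfrl did not pass the filter.

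**Figure D3:**
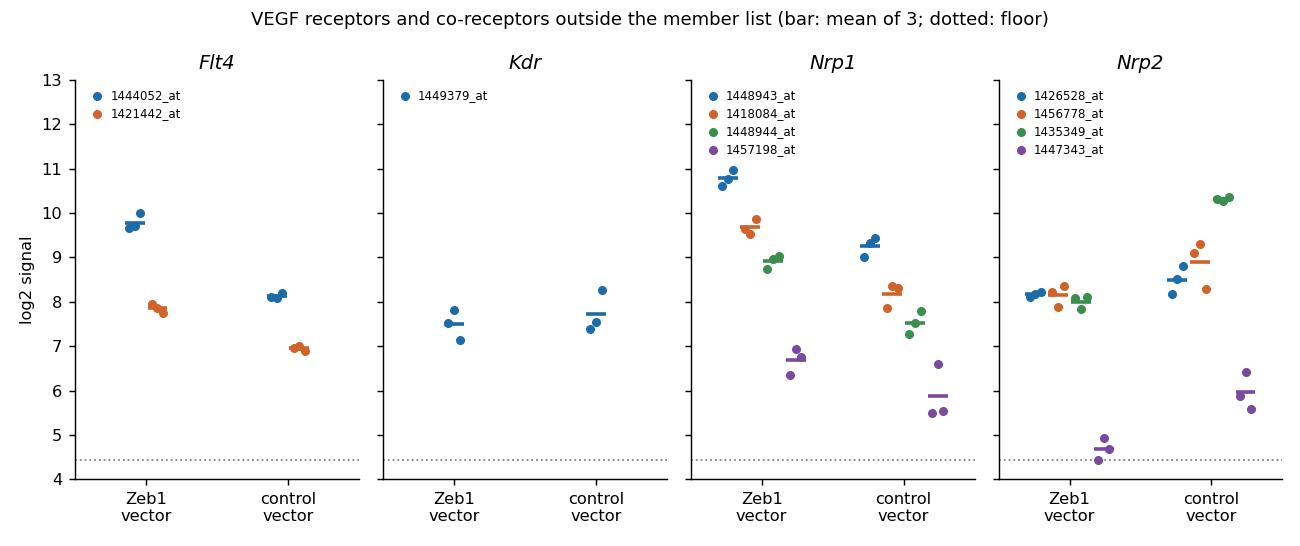
Log2 signal (y axis) of each probe set of Flt4, Kdr, Nrp1 and Nrp2 on the 3 Zeb1 vector arrays and 3 control vector arrays (x axis). Points are arrays, bars are means of 3 and the dotted line is the floor. Both Flt4 probe sets are higher on every Zeb1 array than on any control array, and the brightest Nrp2 probe set is lower, at 7.83 to 8.10 in Zeb1 cells against 10.27 to 10.36 in control cells.

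Of 12 enzymes listed for cleaving or activating these ligands, 9 were tested, 5 fell and 1 rose, and the median log2 change was -0.55, against 0.01 over all 11893 tested genes, of which 25.8% were called higher and 23.5% lower. St14 (matriptase, a membrane protease of epithelia) read 5.64, 5.14 and 4.45 in Zeb1 cells, against 11.69, 11.77 and 11.54 in control cells, at least 96.7-fold lower (adjusted p = 5.37e-08). It passed the filter through its control arrays alone and so had to differ, and its log2 change of -6.59 was -5.34 with the floor set to the pooled median. Plau (urokinase, which activates Pdgfd in human cells) fell by 3.55 (adjusted p = 4.65e-09), at 9.57 to 9.75 in Zeb1 cells and 13.01 to 13.27 in control cells.

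Pcsk5, a proprotein convertase that processes Vegfc, was at least 5.61-fold higher (adjusted p = 0.00029) with 2 control arrays at the floor, a log2 change of 2.49, or 0.95 with the floor set to the pooled median. This probe set passed the filter through its Zeb1 arrays alone and so had to differ. The other Pcsk5 probe sets did not pass the filter, with log2 differences of 0.22, 0.21, 1.15 and -0.17. Chosen after their values were seen, the convertase Furin fell by 0.90 (adjusted p = 3.22e-05), tissue plasminogen activator, Plat, which activates Pdgfc, fell by 0.55 (adjusted p = 0.00614, or 0.055 with no filter), and Ccbe1, a cofactor of Vegfc cleavage, had a change of -0.18 (adjusted p = 0.204).

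Signalling partners of the receptors changed in both directions, with 9 of 24 tested genes up, 5 down and a median log2 change of 0.15. Over all 11893 tested genes 25.8% were called higher and 23.5% lower, the shares beside which this list and those below are to be read. The adaptor Grb7 was at least 16.8-fold lower (adjusted p = 3.83e-06), but passed the filter through its control arrays alone and so had to differ. Its log2 change of -4.07 was -3.29 with the higher floor. The kinase Fyn rose by 1.44 (adjusted p = 0.001) and Pik3r1, a regulatory subunit of PI3K, rose by 1.10 (adjusted p = 8.66e-05).

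Among 16 tested regulators of these transcripts 5 rose and 6 fell, with a median of -0.05. Egln3, a hydroxylase that marks HIF for destruction and is itself induced by HIF, was at least 10.6-fold higher (adjusted p = 2.67e-05), but passed the filter through its Zeb1 arrays alone and so had to differ. Its log2 change of 3.41 was 2.37 with the higher floor. Nfatc1 rose by 2.29 (adjusted p = 5.93e-07) on its brightest probe set and on 3 others by 1.58 to 1.73, while the remaining one had a change of -0.69 (adjusted p = 0.0537). Egr1, an early response factor, rose by 1.05 (adjusted p = 0.000325). Hif1a, chosen after its value was seen, fell by 0.23 (adjusted p = 0.012), a call lost with each array centred on its median (adjusted p = 0.0783) or with no intensity trend (adjusted p = 0.0702).

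Of 10 tested extracellular binders 5 rose and 3 fell, with a median of 0.20. Biglycan, Bgn, was at least 123.5-fold lower (adjusted p = 9.49e-07). Its log2 change of -6.95 was -6.23 with the higher floor and -6.34 without Zeb1 replicate 1. The semaphorins, which compete with VEGF for neuropilins, divided: Sema3a, a ligand of Nrp1, rose by 2.77 (adjusted p = 7.11e-08) and Sema3f, a ligand of Nrp2, fell by 2.33 (adjusted p = 0.000448). That Sema3f probe set carries the suffix x. The other Sema3f probe sets, which passed the filter through their control arrays alone, had changes of -2.41 and -4.07. On the latter every Zeb1 array was at the floor. Of 11 tested genes among other angiogenic ligands and receptors 3 rose and 1 fell, with a median of 0.01. Endothelin 1, Edn1, a vasoconstrictor, was at least 5.21-fold lower (adjusted p = 3.82e-06), and Angpt2 and Fgf1 both rose by 1.03 (adjusted p = 0.00106 and 0.00151). No Edn1 array was at the floor, and the Edn1 log2 change of -2.38 was -2.20 with the higher floor.

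**Figure D4:**
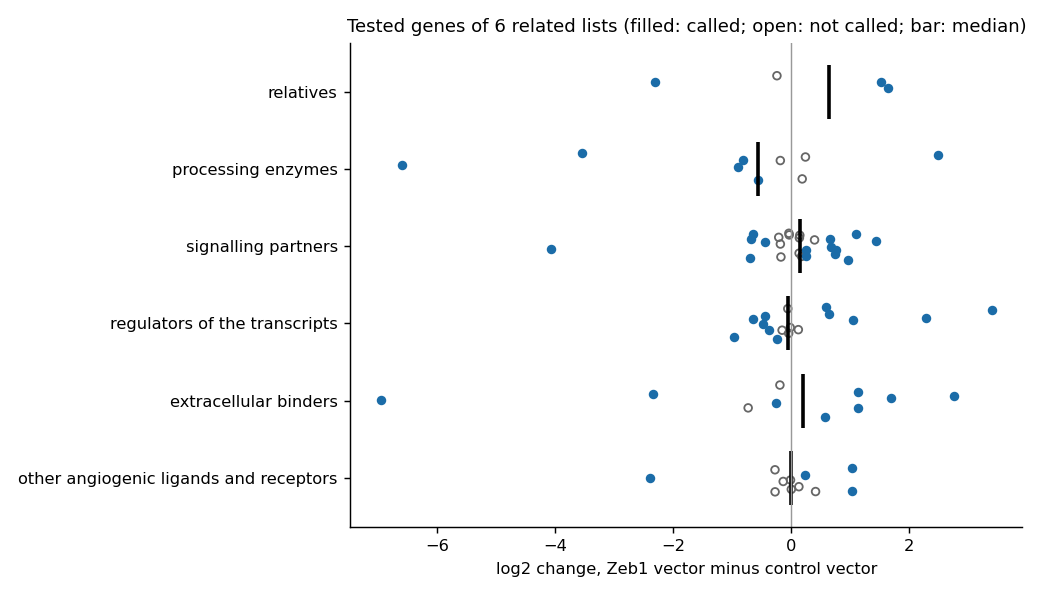
Log2 change, Zeb1 vector minus control vector (x axis), of the tested genes of 6 related lists (y axis), each gene read by its brightest tested probe set. Filled points passed the test, open points did not, and the bar is the list's median, which runs from -0.55 for the processing enzymes to 0.65 for the relatives.

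The 3 genes whose pattern over the 6 arrays lay nearest to that of Vegfc (brightest probe set, each gene centred on its own mean) were L3hypdh, Slc39a8 and Manea, at root mean square distances of 0.087, 0.095 and 0.105 in log2 units, among 11893 genes. Their log2 changes were 1.86, 2.02 and 1.88. No member fell, so no such genes were sought for a fall.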

How the data were processed

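RNA of 6 samples was labelled with biotin and hybridised to Affymetrix arrays, per the labels' protocols. The authors deposited log2 values of 45101 probe sets, made with MAS5 per the submitters' processing notes, with no version given in the sources used here. Out of log2, 100% of values were multiples of 0.1 (tolerance 0.01 multiples), and every array's mean was 500 after trimming 2% at both ends. Missing values (2, no member) were set to the floor.

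Signals under the 25th percentile (log2 4.45) were raised to it. Left out were 64 control probe sets, 932 with several symbols and 9160 with none here. Symbols came from the platform annotation. Of 34945 probe sets, 20594 at or above their array's median on at least 3 arrays were tested with limma 3.58.1 in R 4.3.3 (eBayes with intensity trend, Benjamini-Hochberg, threshold 0.05), Zeb1 vector minus control vector. A pathway gene is read by its brightest tested probe set, and all adjusted p-values come from this fit. Folds where the lower group mean lies under the pooled median (6.32) or an array is at the floor are written as at least N-fold. With 3 arrays a group the number of arrays limits precision (median SE 0.147). On simulated data with 20594 probe sets, changes of 1 and 2 on the log2 scale were called in 58% and 90% of 50 probe sets each. Few probe sets were changed in the simulation, where 46.1% were called in the real data, so these shares need not hold here. Alternatives were other floors, filters and normalizations, no trend, a replicate block and each array left out. Same-numbered arrays did not deviate together (r = 0.017, 0.014 and -0.039).

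The members and gene lists were chosen with earlier results of these data known. Named were every member and Zeb1 probe set, all relatives, and the 3 largest called changes of each list, beside cell type markers.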

Additional observations from a re-analysis of the deposited data

How the results depend on the processing

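Across 14 alternatives the rises of Pgf and of the Vegfc probe sets kept their direction and call wherever they were fitted, with log2 changes of 1.67 to 1.98 for Pgf, 1.78 to 1.98 for 1440739_at, 1.75 to 2.09 for 1439766_x_at and 1.08 to 2.96 for 1419417_at. The count of member probe sets called higher, 5, was 2 with the strict filter (median or above on all 6 arrays), which fits 14 of the 22, and 4 to 5 with an array left out. Over all probe sets, 4211 of 16692 were called higher with the strict filter, and 4309 to 5004 of 20594 with an array left out. The count called lower, 0, was 1 with no filter (Pdgfa on 1418711_at) and 0 to 1 with an array left out (1 without control replicate 2, Vegfa on 1451959_a_at). Among all probe sets, 3818 of 34945 were called lower with no filter, and 3913 to 4213 of 20594 with an array left out. Member probe sets whose groups did not overlap, 8, numbered 5 with the strict filter, 5 with each array centred on its median, and 9 to 11 with an array left out. Smaller groups overlap less readily, and the shares over all probe sets under these settings are not given here. Without those shares the counts of groups that do not overlap cannot be set against the background, and nothing about the members was read from them. Uncalled changes that turned sign with an array left out, by the lowest and highest value, were those of Vegfa on 1451959_a_at (-0.73 to 0.080), Flt1 on 1454037_a_at (-0.018 to 0.26), Pdgfa on 1449187_at (-0.041 to 0.013), Pdgfb on 1450413_at (-0.36 to 0.067) and Kdr (-0.41 to 0.030), and the cause was not tested. All probe sets called numbered 9493, or 8095 to 9685 under the alternatives. With a replicate block 9377 of all probe sets were called in either direction, 4957 of them higher. Under that setting 4 member probe sets were called higher, and the call on Flt1 1440926_at was lost (adjusted p = 0.0602). The titles share replicate numbers, but only 1 of the 3 Zeb1 arrays correlated best with its own number. With the floor set to the pooled median the log2 change of Mcam was -2.41. Alternatives for named genes outside the members were added after seeing the data.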
